A study of Drosophila melanogaster with 6 samples.

Results

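The effect of a tau knock-in was compared between male and female brain cells of Drosophila melanogaster by splitting droplet libraries of mixed-sex brains into male and female barcodes. A barcode (the tag that marks the transcripts of a single droplet) was eligible with at least 2000 unique molecular identifiers (UMIs, each a captured transcript molecule) and at most 20% of them from mitochondrially encoded genes. Members were chosen by their share of roX transcripts: a barcode was called male when lncRNA:roX1 and lncRNA:roX2 together held at least 0.3% of its UMIs and female when they held at most 0.1%. Of 55094 eligible barcodes, 31517 were male, 20223 were female and 3354 lay between the thresholds and were left out. The 51740 sexed barcodes comprised 12505 male and 6641 female barcodes of control brains, and 19012 male and 13582 female barcodes of knock-in brains.

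There were 3 libraries per genotype. Controls carried the pan-neuronal driver transgene elav-GAL4(x)/+, with the treatment label wild type, and the other genotype is labelled elav-tau P251L KI, with the treatment label Tau P251L mutant, a knock-in (KI) of an amino acid change in the microtubule-binding protein Tau. For each library the brains of 20 males and 20 females were pooled, digested for 30 min in 0.05% trypsin, passed through a 10 µm strainer and profiled with a droplet kit that reads transcript ends. Both sexes of a library therefore shared dissection, droplets and sequencing. The labels do not give the flies' ages, how the knock-in was built, whether knock-in flies also carried the driver, or which libraries were prepared together, and nothing says that the pools came from separate crosses, so p-values measure the spread between these pools. The Tau change, the driver and any other difference in strain background between the genotypes cannot be told apart here. Below, knock-in effect means the difference between the libraries of these genotypes.

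In flies, males have a single X chromosome and raise its transcription with the dosage compensation complex, in which the proteins MSL-1, MSL-2, MSL-3, MLE and MOF assemble with the noncoding RNAs roX1 and roX2 on the X. Females make Sex-lethal (Sxl) protein, which blocks translation of msl-2 and directs the splicing of transformer (tra), and through it of doublesex (dsx) and fruitless (fru). Tau binds and stabilises microtubules in axons, and changes at its conserved proline residues are known from inherited human tauopathies.

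Depth in replicates 1, 2 and 3 was 2461110, 47728205 and 4452279 UMIs for male control sums, against 38320901, 27602486 and 8671117 UMIs for male knock-in sums. Female control sums held 3819037, 17581628 and 5263600 UMIs, and female knock-in sums 30496499, 12254406 and 9453120 UMIs. Control replicates 1 and 3 were therefore the shallowest on both sides. Between 0 and 79 eligible barcodes were shared by any pair of libraries, at most 0.517% of the smaller library. Knock-in replicate 3 stood apart in its tau level, and control replicates 1 and 2 in yolk protein transcripts, as described with the results they touch.

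Male and female barcodes separated into 2 groups along the roX share in every library. Median roX shares of male barcodes were 0.597%, 0.883% and 0.999% for controls and 0.759%, 0.612% and 0.922% for knock-in libraries, and the median of female barcodes was 0 in all 6. These values chose the members and are given as a description. Just inside the male threshold, at 0.3 to 0.35%, lay 15 to 561 barcodes per library, against 11 to 465 just outside at 0.25 to 0.3%. Just inside the female threshold, at 0.05 to 0.1%, lay 26 to 670 barcodes, against 18 to 287 just outside at 0.1 to 0.15%. Knock-in replicate 2 had the highest share between the thresholds, 11.1% of its eligible barcodes, where the other libraries had 1.89 to 5.57%. Barcodes under 100 UMIs, which carry free RNA, held roX shares of 0.0614%, 0.411% and 0.145% for controls and 0.247%, 0.302% and 0.125% for knock-in libraries, so that free RNA alone reached the male threshold in control replicate 2 and knock-in replicate 2. The part of free RNA and of male-female doublets, which were not removed, in the sex calls was not tested.

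**Figure D1:**
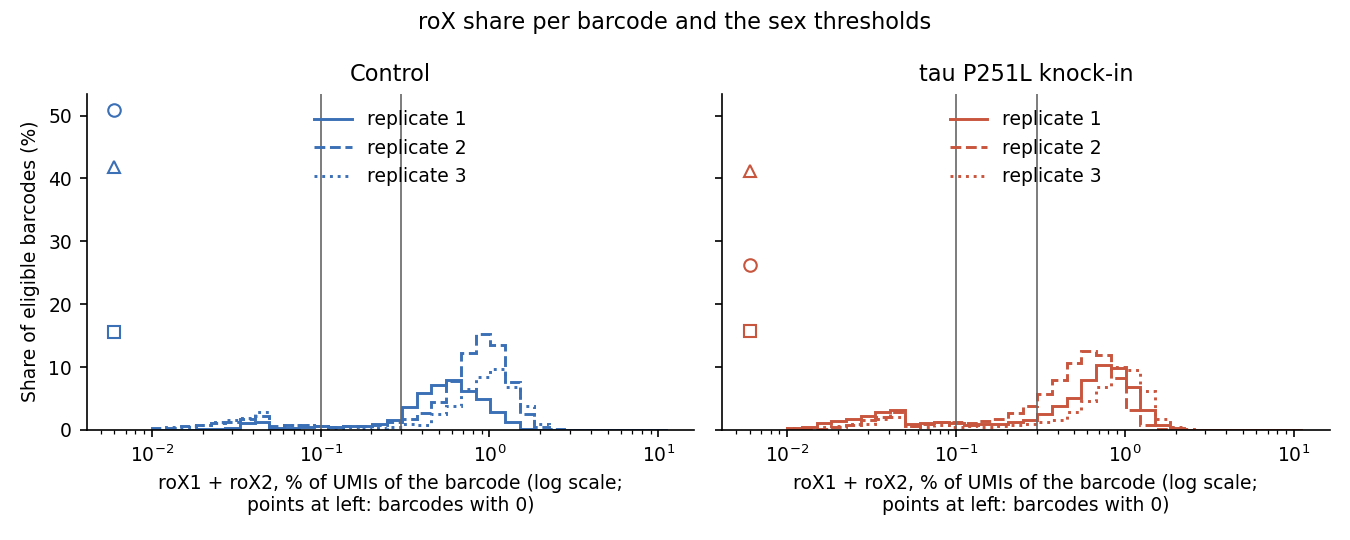
Share of eligible barcodes (%, vertical) by the percentage of UMIs from roX1 and roX2 (horizontal, log scale) in the 3 control libraries (left) and the 3 knock-in libraries (right), with open points at the left for barcodes with 0 roX UMIs. The vertical lines mark the thresholds at 0.1% and 0.3%, and in each library few barcodes lie between them, most in knock-in replicate 2 (dashed, right; 11.1%).

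Genes that the rule did not use also differed between the male and female sums of a library. On the common scale of all 12 sums, Sxl stood at 499, 647 and 646 CPM (UMI counts scaled to library size with TMM factors) in male control sums against 869, 1083 and 1145 CPM in female control sums. In the knock-in libraries it stood at 662, 845 and 659 CPM in male sums against 1117, 1397 and 1057 CPM in female sums. Sxl was lower in the male sum of each of the 6 libraries, and its highest male level was below its lowest female level. msl-2, the limiting male protein of the complex, was higher in the male sum in 6 of 6 libraries, at 19.9, 21.7 and 21.7 CPM against 14.1, 15.5 and 16.5 CPM for controls and at 20.8, 24.6 and 30.1 CPM against 16.6, 20.6 and 21.3 CPM for knock-in libraries. dsx was likewise higher in the male sum in 6 of 6 libraries, and fru was higher in the female sum in 6 of 6. Over all libraries the male and female values of msl-2, dsx and fru overlapped. Such a side in 6 of 6 libraries is not confined to sex genes. elav was lower, and escl and CG8321 were higher, in the male sum of all 6. The share of all features with the same side in 6 of 6 was not counted. Counts summed per gene do not resolve the sex-specific splice forms of Sxl, tra, dsx and fru.

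Male barcodes made up 41.9%, 71.8% and 45.5% of sexed barcodes for controls and 53.7%, 69.0% and 46.9% for knock-in libraries. The genotypes overlapped, with means of 53.1% ± 16.3 and 56.5% ± 11.3 (SD, n = 3 each; two-sided exact permutation p = 0.7), although each pool held equal numbers of male and female brains. The smallest p that 3 against 3 libraries can give is 0.1. Over the 97 such single-value tests made, no Benjamini-Hochberg adjusted p was below 0.441. The difference of 3.46 points changed sign without control replicate 1, control replicate 3 or knock-in replicate 2, the lowest value being -2.77 points. The male share rests on the thresholds of the rule. It was highest in control replicate 2 and knock-in replicate 2, whose free RNA held roX shares of 0.411% and 0.302%. Knock-in replicate 2 also left 11.1% of eligible barcodes unsexed. The part of free RNA in the male share was not tested.

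The targeted gene itself did not separate the genotypes in either sex. tau (chromosome arm 3R, 27639886 to 27656996, minus strand; coordinates here and below from the Ensembl BDGP6 annotation, matched by identifier) stood at 257, 267 and 282 CPM in male control sums and at 309, 348 and 70.4 CPM in male knock-in sums. In female sums it stood at 259, 259 and 287 CPM for controls and at 309, 331 and 65.4 CPM for knock-in libraries. Knock-in replicates 1 and 2 lay above all controls in both sexes, and knock-in replicate 3 lay far below them in both. The fitted log2 difference was -0.17 in males (SE 0.47, edgeR adjusted p = 0.930) and -0.19 in females (SE 0.52, edgeR adjusted p = 0.891), and without knock-in replicate 3 it was 0.27 in each sex, also not past the threshold. The male effect minus the female effect on tau was 0.05 with a 95% interval from -0.07 to 0.17. At the genes described next, the library labelled knock-in replicate 3 lay with the other knock-in libraries. An amino acid change leaves no mark in a count per gene, so the tau level does not check the labels.

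In male cells 21 of 9605 features passed the threshold of an adjusted p under 0.05 in edgeR's quasi-likelihood test. Of these, 9 were higher in knock-in sums (0.0937% of features tested) and 12 were lower (0.125%). In female cells 8 of 9040 features passed, 4 higher (0.0442%) and 4 lower (0.0442%). An unadjusted p under 0.05 was reached by 806 features in males, where 480.25 would be expected with no difference, and by 1096 in females, where 452 would be expected. The male and female tests use different cells of the same 6 libraries, so a difference between the pools appears in both, and like results in both sexes are not independent support for each other. In the male comparison 14 of the 21 features were genes and 7 were single transposable element insertions. All 21 had knock-in values that did not overlap the control values in either sex, as did 16.1% of all features tested in males and 19.4% in females. DESeq2 on the same sums called 131 features in males and 351 in females.

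The genes past the threshold in both sexes included losses to near absence (CPM of called features are scaled among the 6 sums of a sex). mthl8, a Methuselah-like G protein-coupled receptor gene (arm 3L, 22428 to 26308, plus strand), stood at 26.9, 26.3 and 25.8 CPM in male control sums and at 24.2, 25.6 and 22.1 CPM in female control sums. No UMI of it was found in any knock-in sum of either sex, against 1458 UMIs in male and 676 in female control sums. It was at least 633-fold lower in male and at least 422-fold lower in female knock-in cells, taking 3 counts over the group as the floor (edgeR adjusted p = 0.000406 and 0.00276).

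CG6912 and the noncoding asRNA:CR45600 are neighbours on arm 3R (15135138 to 15137004 and 15136985 to 15140121, both minus strand, overlapping by 20 bases). CG6912 fell from 36.6, 47.7 and 43.2 CPM to 0.602, 0.626 and 2.58 CPM in males, a log2 change of -5.40 (SE 0.50, edgeR adjusted p = 0.00911). In females it fell from 45.6, 46.0 and 39.4 CPM to 0.493, 0.445 and 0.736 CPM, a log2 change of -6.31 (SE 0.24, edgeR adjusted p = 0.000191). The knock-in values lay far below the controls in every library, with replicate 3 the highest in both sexes. asRNA:CR45600 went from 62, 57.2 and 64.9 CPM to 0.393, 0.587 and 2.93 CPM in males and from 63.5, 55.3 and 62.3 CPM to 0.493, 0.890 and 0.842 CPM in females. It fell by 5.99 on the log2 scale in males and by 6.42 in females (edgeR adjusted p = 0.00911 and 0.000191). Reads in the overlap, and any counted without regard to strand, cannot be assigned to a single member of the pair.

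Mtpbeta, the beta subunit of the mitochondrial trifunctional protein of fatty acid oxidation (arm 2R, 23866648 to 23868603, minus strand), fell less steeply. Its male sums held 32.1, 35 and 32.9 CPM in controls and 12.6, 10.9 and 8.91 CPM in knock-in libraries, and its female sums 42.8, 36.3 and 34.8 CPM against 12.5, 9.44 and 9.26 CPM. The log2 changes were -1.61 in males (SE 0.17, edgeR adjusted p = 0.00911) and -1.86 in females (SE 0.18, edgeR adjusted p = 0.0247), with no overlap between genotypes in either sex.

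The serotonin receptor gene 5-HT1B (arm 2R, 19022325 to 19032642, minus strand) rose to like levels in both sexes. Male sums held 39.6, 50.6 and 55.0 CPM in controls and 110.1, 122 and 125 CPM in knock-in libraries. Female sums held 38.3, 51.0 and 49.2 CPM in controls and 113, 119 and 125 CPM in knock-in libraries. Every knock-in value was above every control value in each sex, and the log2 changes were 1.29 (SE 0.15, edgeR adjusted p = 0.0169) and 1.36 (SE 0.15, edgeR adjusted p = 0.0424). The male effect minus the female effect was -0.04, with a 95% interval from -0.21 to 0.13. The other 4 serotonin receptor genes were measured in both sexes and none passed the threshold.

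CG15547, CG30428 and pre-lola-G completed the 4 increases found in both sexes. CG30428 (arm 2R, 25251927 to 25254535) went from 31.0, 34.9 and 31.3 CPM to 77.2, 76.5 and 86.2 CPM in males and from 29.6, 33.8 and 30.5 CPM to 80.3, 75.4 and 79.4 CPM in females. Its log2 changes were 1.30 and 1.32 (edgeR adjusted p = 0.00911 and 0.0163), and their difference was 0.00 with a 95% interval from -0.18 to 0.17. CG30428 lies inside CG9380 on the opposite strand and overlaps annotated transposable element insertions, so its counts may be shared. pre-lola-G (arm 2R, 10481894 to 10485252), a transcript unit inside the axon guidance regulator gene lola and on its strand, went from 4.86, 8.24 and 7.99 CPM to 42.1, 51.6 and 29.8 CPM in males and from 4.98, 5.94 and 7.03 CPM to 46.5, 43.4 and 35.9 CPM in females, with log2 changes of 2.49 and 2.80 (edgeR adjusted p = 0.00911 and 0.00395). CG15547 (arm 3R, 30881792 to 30883503) rose by 3.44 and 3.23 on the log2 scale (edgeR adjusted p = 0.00911 and 0.0145), from at most 1.92 CPM in any control sum to at least 11.8 CPM in any knock-in sum.

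**Figure D2:**
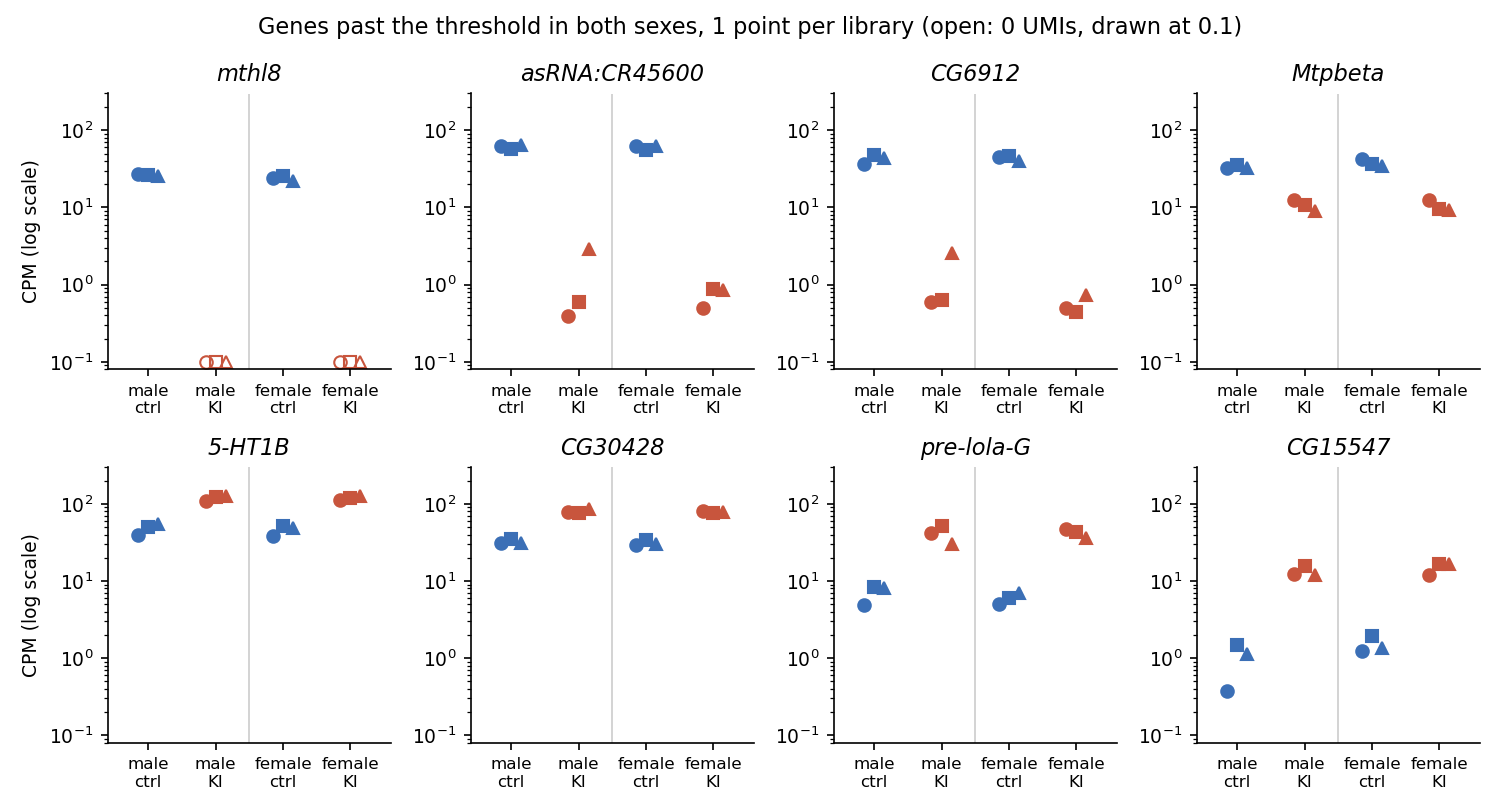
CPM (vertical, log scale) of the 8 genes past the threshold in both sexes, in the male and female sums of control (blue) and knock-in (red) libraries, with circles, squares and triangles for replicates 1, 2 and 3 and open symbols for sums with 0 UMIs. The genotypes are apart in both sexes in each panel, as for 5-HT1B at 110.1 to 125 CPM in male and 113 to 125 CPM in female knock-in sums, and knock-in replicate 3 is higher in males than in females for CG6912 and asRNA:CR45600.

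The other 13 features past the threshold in males did not pass it in females, where their adjusted p ran from 0.0513 to 0.210 and was under 0.1 for 10 of them. Missing the threshold in females does not show a sex difference, and the difference itself was tested as described further on. escl, which encodes a subunit of Polycomb repressive complex 2 (arm 2L, 11990927 to 11992848, plus strand), went from 5.23, 3.37 and 3.88 CPM to 24.8, 13 and 21.1 CPM in males and from 3.49, 3.13 and 3.32 CPM to 23.3, 12.1 and 18.6 CPM in females. The log2 changes were 2.32 (SE 0.31, edgeR adjusted p = 0.0304) and 2.45 (SE 0.29, edgeR adjusted p = 0.0513), with a difference of -0.08 and a 95% interval from -0.45 to 0.30. Every knock-in value lay above every control value in both sexes. The other 15 Polycomb group genes did not pass in either sex.

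string (stg), the Cdc25 phosphatase that drives entry into mitosis (arm 3R, 29251826 to 29255800), went from 8.22, 8.88 and 7.99 CPM to 0.288, 0.470 and 0 CPM in males, a fall of 4.78 on the log2 scale (edgeR adjusted p = 0.0164). Its female values were 4.73, 7.09 and 8.98 CPM in controls and 0.362, 0.534 and 0.105 CPM in knock-in libraries, a log2 difference of -4.30 (edgeR adjusted p = 0.0513). The knock-in and control ranges were apart in each sex, and the 95% interval of the male minus female effect on stg, from -1.75 to 0.56, contained 0.

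Hsp70Ba, a copy of the heat-inducible chaperone gene Hsp70 (arm 3R, 12465453 to 12467776), had a log2 change of -4.94 in male knock-in sums (edgeR adjusted p = 0.0369), at 20.5, 7.56 and 21.7 CPM against 0.157, 0.666 and 1.05 CPM. Female sums held 14.2, 6.54 and 24.4 CPM in controls and 0.164, 0.445 and 0.842 CPM in knock-in libraries (log2 difference -5.12, edgeR adjusted p = 0.0702). Hsp70 copies are nearly identical, so reads may be split among them and the value of a single copy is uncertain. None of the other 11 heat shock genes measured passed in either sex.

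CG18577 (arm 3R, 11196092 to 11197285) held 376 UMIs in male controls and 6 in male knock-in sums, and 159 and 2 UMIs in females. The male change passed the threshold (edgeR adjusted p = 0.00911) and the female one missed it (edgeR adjusted p = 0.0556), although the pooled female counts were 156-fold higher in controls (95% counting interval 42.4 to 1296). CG6654 (arm 3R, 15211277 to 15213658) went from 26.5, 31.6 and 26.5 CPM to 8.90, 9.28 and 7.15 CPM in males and from 22.4, 28.6 and 21.3 CPM to 8.68, 10.6 and 8.42 CPM in females. It fell by 1.74 on the log2 scale in males (edgeR adjusted p = 0.00911), against a difference of -1.39 in females (edgeR adjusted p = 0.070). The male effect minus the female effect on CG6654 was -0.30, with an unadjusted 95% interval from -0.59 to -0.02 and an edgeR adjusted p of 0.873.

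The 7 insertions past the threshold in males were 3 higher and 4 lower in knock-in sums, among 807 insertions tested (8.40% of features). A HeT-A insertion on the X (FBti0063565), from the retrotransposon family that maintains fly telomeres, went from 5.60, 13.1 and 13.5 CPM to 88.6, 145 and 52.9 CPM in males and from 5.48, 9.84 and 17.2 CPM to 98.2, 192 and 39.3 CPM in females. A HeT-A insertion on chromosome 4 (FBti0062678) stood at 1.12, 0.743 and 0.913 CPM in male and at 0, 0.110 and 0.195 CPM in female controls, against 12.4, 11.0 and 5.27 CPM in male and 12.8, 10.1 and 3.26 CPM in female knock-in sums. A flea insertion on arm 2R (FBti0018961) held 1 UMI in male controls against 242 in male knock-in sums, and 0 against 156 in females. Insertions of I (FBti0020189), of Stalker2 (FBti0020112 and FBti0019625) and of Doc (FBti0019172) had log2 changes of -4.29, -2.84, -4.08 and -2.27 in males, and stood at -4.62, -2.57, -3.88 and -1.77 in females. Copies of a family share sequence, so the assignment to a single insertion is uncertain. In females 618 insertions were tested and 0 passed in edgeR.

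Which features passed in males depended on single libraries, though leaving out a library also leaves fewer samples. Without replicate 1 or 2 of either genotype a single feature passed in males, mthl8 each time. Leaving out control replicate 3 gave 16 calls, 13 of them among the 21, and leaving out the third knock-in library gave 88, all 21 among them. In females 3 features passed without knock-in replicate 1 or 2, all among the 8. Leaving out a control gave 8, 9 and 4 calls for replicates 1, 2 and 3, with 6, 5 and 4 of the 8 among them, and leaving out the third knock-in library gave 18, with 6 of the 8. Of the female calls mthl8, CG6912 and asRNA:CR45600 passed in each of the 20 alternatives. Over the alternatives the male log2 change ran from 1.19 to 1.39 for 5-HT1B and from 1.14 to 1.49 for CG30428. It ran from -1.74 to -1.45 for Mtpbeta, and more widely for CG18577 (-7.03 to -5.17) and FBti0018961 (5.65 to 8.76).

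**Figure D3:**
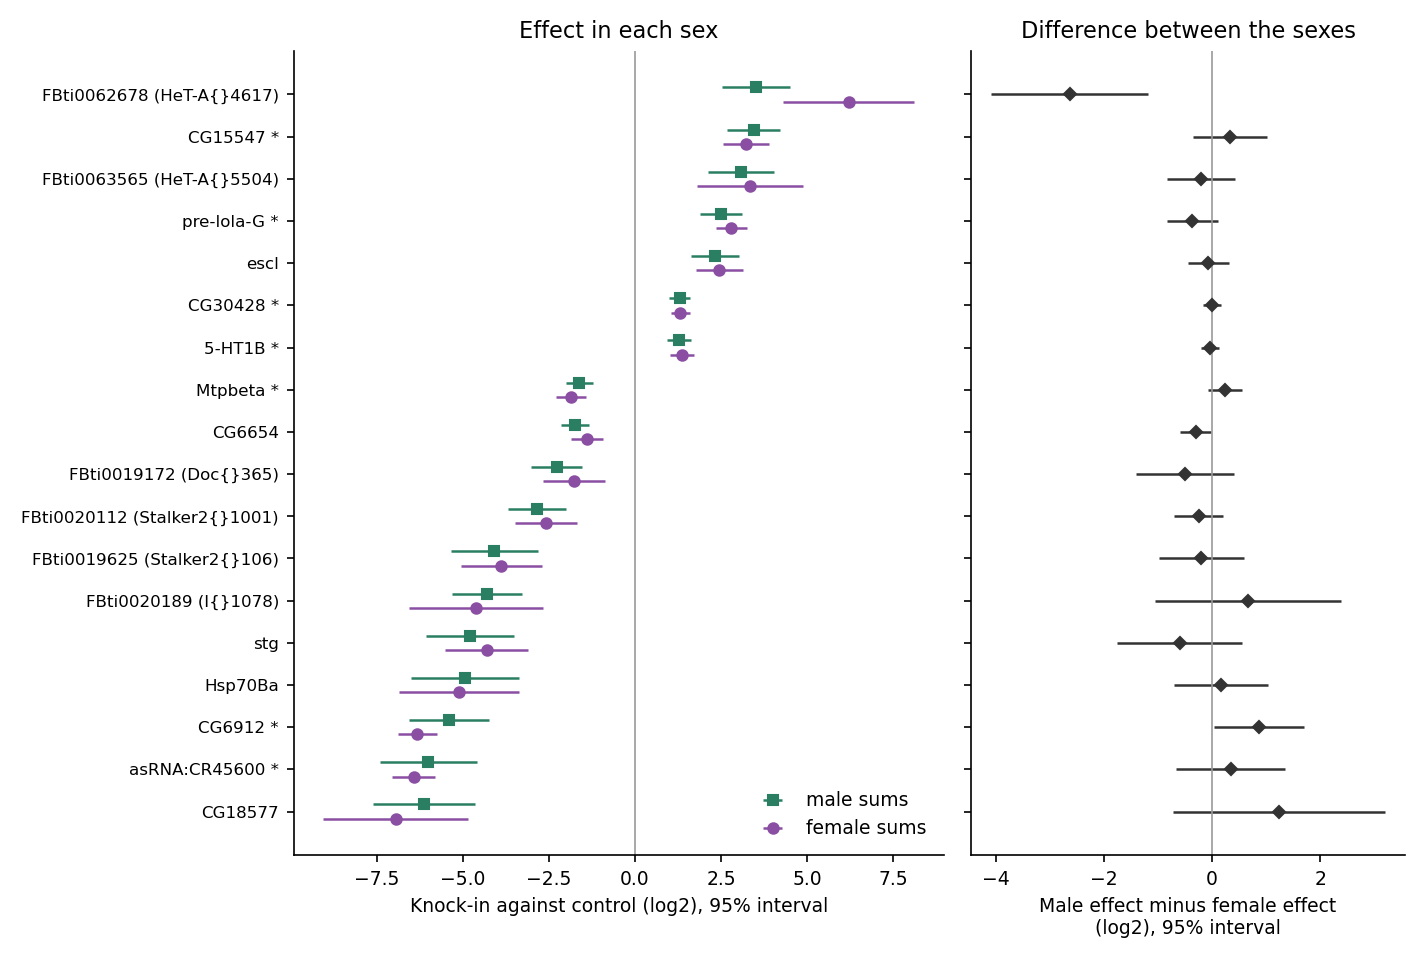
Knock-in against control (log2, left) in male sums (squares) and female sums (circles), and the male effect minus the female effect (log2, right), with 95% intervals, for 18 of the 21 features past the threshold in males; an asterisk marks those past it in females too, and mthl8 and FBti0018961, with a group at 0 UMIs, are not drawn. The intervals of the 2 sexes lie close together in most lines, and the interval of the difference lies clear of 0 for CG6912, CG6654 and FBti0062678.

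Whether the knock-in effect differed by sex was tested for 9546 features with the library as a block, and 0 passed the threshold in edgeR (0% of features tested). An unadjusted p under 0.05 was reached by 518 features, 5.43%, where 477.3 would be expected with no difference. The smallest adjusted p was 0.0532. With DESeq2 in place of edgeR 9 features passed, and with limma voom 2. The median unadjusted 95% interval reached 0.37 on the log2 scale to either side, with a median SE of 0.16. Passing after adjustment over 9546 features takes a larger difference. The interaction of asRNA:CR44429 did not pass at 1.02 with an SE of 0.09. Sex differences well above 0.37 could therefore go uncalled for a typical feature. Of the 20 features called in males that had an interval, 17 intervals contained 0. The others were CG6912, at 0.87 (0.04 to 1.70), CG6654 and the chromosome 4 HeT-A insertion, at -2.64 (-4.09 to -1.18; 3 UMIs in female controls), none past the threshold after adjustment (edgeR adjusted p = 0.873 for each).

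The feature nearest to the threshold was asRNA:CR44429, a noncoding RNA on the X (15297312 to 15298217, minus strand) that overlaps the juvenile hormone receptor gene gce on the opposite strand. Male sums held 98.6, 61.9 and 70.3 CPM in controls and 46.8, 43.2 and 1.17 CPM in knock-in libraries. Female sums held 138, 82.5 and 96.7 CPM in controls and 33.9, 27.4 and 0.529 CPM in knock-in libraries. Its level was higher in the female sum of each control library and higher in the male sum of each knock-in library. The male effect minus the female effect was 1.02 (95% interval 0.81 to 1.23, edgeR adjusted p = 0.0532), and over the 20 alternatives it ran from 0.96 to 1.29 with adjusted p from 0.000204 to 0.858, past the threshold in 8. The within-sex differences were -1.33 in males (SE 0.83, edgeR adjusted p = 0.688) and -2.34 in females (SE 1.00, edgeR adjusted p = 0.415), and knock-in replicate 3 was near 0 in both sexes.

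The next genes by p, Tret1-1 and CG4797, were higher in female than in male control sums, and neither passed the threshold. In knock-in sums the gap was smaller for CG4797, and for Tret1-1 the male sum was the higher in replicates 1 and 3. Tret1-1, a trehalose transporter, held 30.5, 17.1 and 33.0 CPM in male and 93.4, 41.0 and 57.0 CPM in female control sums. In knock-in libraries it held 17.8, 24.0 and 15.9 CPM in male and 16.4, 25.5 and 12.4 CPM in female sums, a sex difference of effects of 1.31 (95% interval 0.86 to 1.76, edgeR adjusted p = 0.429). CG4797 (pippin in the annotation), a predicted sugar transporter, held 5.88, 4.60 and 11.5 CPM in male and 17.8, 16.9 and 37.0 CPM in female controls, against 5.83, 10.7 and 3.17 CPM and 7.08, 14.7 and 5.71 CPM in knock-in sums (difference 1.31, edgeR adjusted p = 0.429). Summed glial markers, whose part in these values was not tested, stood at 458, 349 and 377 CPM in male and 292, 403 and 424 CPM in female controls, and at 388, 474 and 290.3 CPM and 423, 493 and 422 CPM in knock-in sums.

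The remaining 7 of the 10 features with the smallest interaction p comprised 5 with a positive and 2 with a negative value, all with an adjusted p of 0.429 or 0.873. CG3168, olf186-M, CG34120, the cystatin gene Cys and the tetraspanin gene Tsp42Ed had differences of 0.99, 1.71, 6.52, 0.83 and 1.70. CG34120 held at most 2.51 CPM in any sum and was not tested within either sex. olf186-M lies wholly inside olf186-F on the same strand. A HeT-A insertion on the X (FBti0062856) held 12.5, 10.7 and 14.0 CPM in male and 4.02, 5.37 and 6.81 CPM in female controls, and 17.8, 25.7 and 21.6 CPM against 16.6, 27.4 and 25.4 CPM in knock-in sums, a difference of -1.18. A TART-C insertion on chromosome 4 (FBti0102118), another telomeric retrotransposon, also had -1.18.

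**Figure D4:**
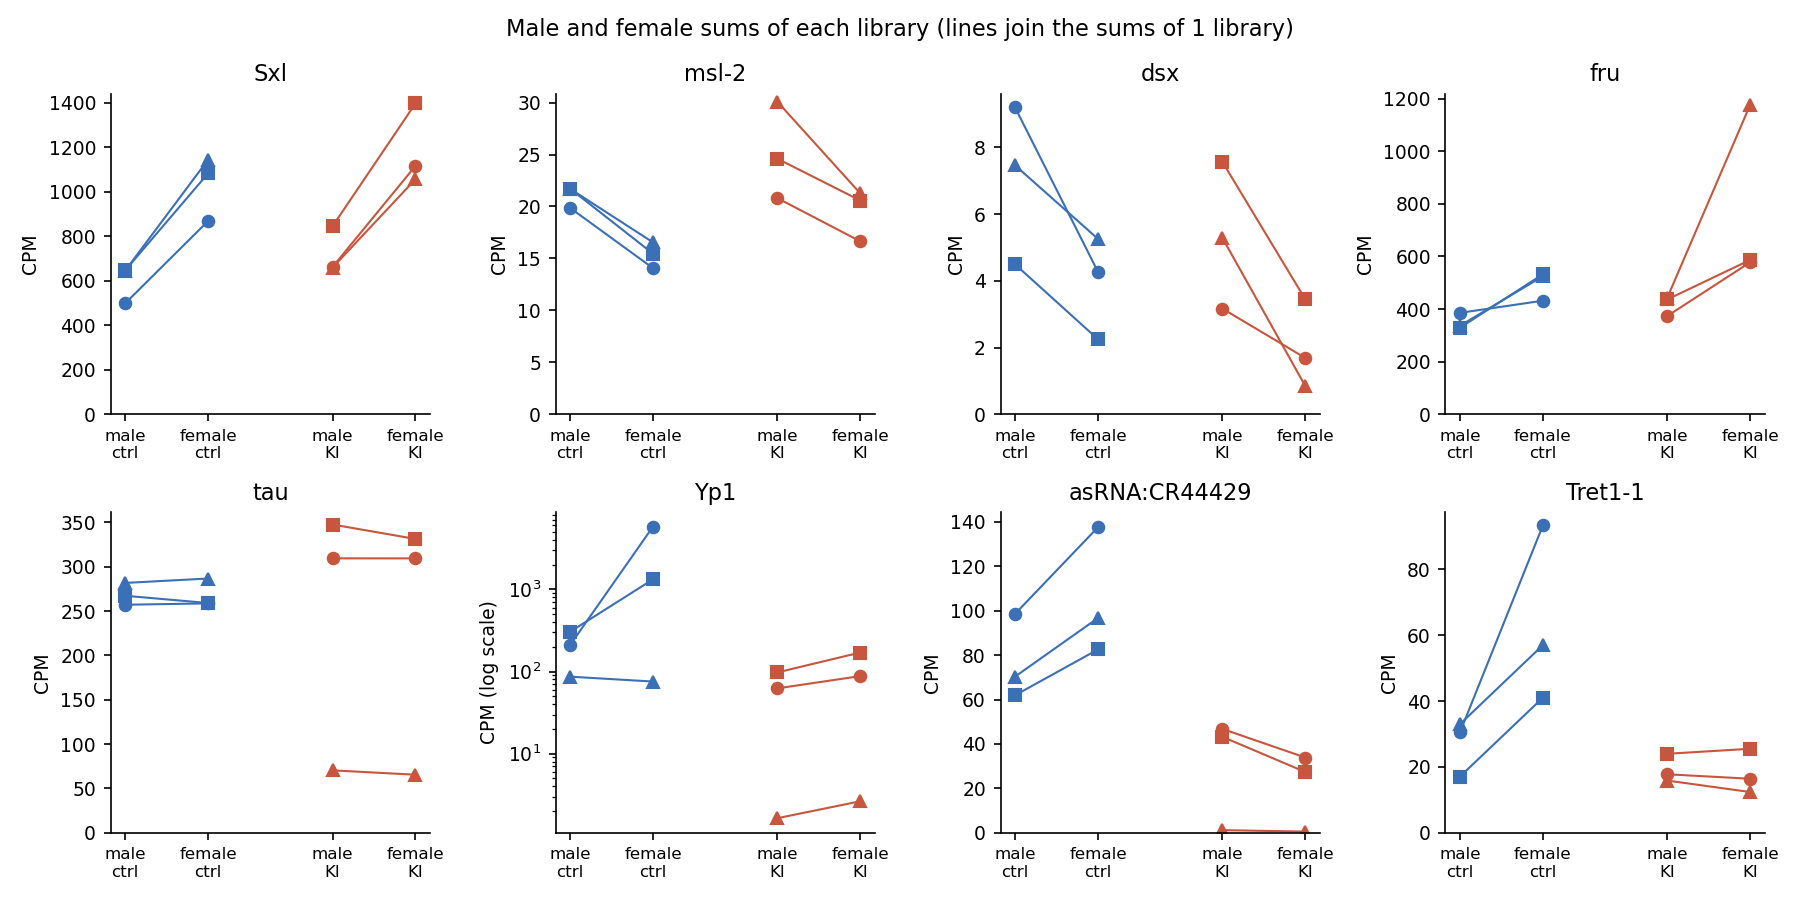
CPM (vertical; log scale for Yp1) of 8 genes in the male and female sums of each library, joined by a line, for controls (blue) and knock-in libraries (red), with circles, squares and triangles for replicates 1, 2 and 3. Sxl is lower and msl-2 and dsx are higher in the male sum of every library, and the lines of asRNA:CR44429 rise from male to female in controls and fall in knock-in libraries.

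None of the genes of sex determination or dosage compensation passed the threshold in males, in females or for the interaction. All 8 listed dosage compensation genes (msl-1, msl-2, msl-3, mle, mof, Clamp, JIL-1 and Unr) were tested, with a median log2 difference of 0.12 in males and 0.16 in females, against medians of 0.00 over all features in both. msl-3 had the smallest male p, at 7.36, 8.95 and 5.88 CPM in male controls and 9.73, 12.2 and 14.0 CPM in male knock-in sums (log2 difference 0.63, SE 0.24, edgeR adjusted p = 0.535). msl-2 had differences of 0.22 in males and 0.34 in females (edgeR adjusted p = 0.720 and 0.474). The median sex difference of effects over the 8 genes was -0.01.

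All 12 genes of the sex determination list were tested, with medians of -0.05 in males, 0.03 in females and 0.04 for the interaction. fru, a regulator of courtship circuits, stood at 385, 329 and 336 CPM in male and 432, 532 and 525 CPM in female controls, and at 373, 436 and 443 CPM in male and 578, 587 and 1177 CPM in female knock-in sums. Female knock-in values lay above all female controls, replicate 3 the farthest, but the test was not passed (log2 difference 0.65, SE 0.29, edgeR adjusted p = 0.430). The interaction for fru was -0.31 with a 95% interval from -0.90 to 0.28. dsx stood at 9.19, 4.49 and 7.46 CPM in male controls and 3.17, 7.56 and 5.29 CPM in male knock-in sums, and at 4.27, 2.25 and 5.25 CPM and 1.69, 3.44 and 0.846 CPM in females, with overlap in both sexes. Sxl had differences of 0.25 and 0.20 (edgeR adjusted p = 0.686 and 0.626) and tra of 0.19 and 0.04 (edgeR adjusted p = 0.762 and 0.922). roX1 and roX2, which the rule used, differed by -0.05 each in males and are not tested here.

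The yolk protein genes Yp1, Yp2 and Yp3, which the female fat body secretes for the egg, had the widest spread of the sex-biased genes. Yp1 held 5793, 1324 and 75.5 CPM in female controls and 88.0, 170.3 and 2.64 CPM in female knock-in sums, and 210.0, 304 and 86.6 CPM against 62.4, 97.6 and 1.64 CPM in males. Female control replicates 1 and 2 were far above the rest, and control replicate 3 lay within the knock-in range. The log2 difference of Yp1 was -4.77 in females (SE 1.77, edgeR adjusted p = 0.359) and -1.91 in males (SE 0.96, edgeR adjusted p = 0.651), and the male minus female effect was 1.66 with a 95% interval from -0.95 to 4.27. Yp2 and Yp3 had -4.13 and -4.28 in females and -1.79 and -2.11 in males. Only these 3 of the 8 listed sex-biased fat body genes passed the filter on low counts within each sex.

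Fat body transcripts were found in like shares of the male and female barcodes of a library, but the summed level of the markers differed by sex in controls, at 1069, 1775 and 515 CPM in male and 18062, 7009 and 529.9 CPM in female sums. The 7 markers include Yp1 to Yp3, so this difference largely restates that of the yolk genes. Yp1 to Yp3 held 1.78%, 0.686% and 0.0385% of all UMIs in female control sums. In male control sums they held 0.0929%, 0.166% and 0.0388%. Of the other markers, Fbp1 was at 0 in 6 sums and Lsp2 in 3. At least 2 UMIs of 7 fat body markers were found in 48.5%, 72.1% and 15.9% of male control barcodes and in 48.9%, 74.4% and 17.0% of female control barcodes. The knock-in libraries had 14.5%, 19.7% and 2.63% in males and 14.6%, 20.1% and 3.99% in females. Barcodes with over 1% of UMIs from Yp1 to Yp3 numbered 31, 101 and 8 in female controls and 59, 29 and 0 in female knock-in libraries, and 10, 195 and 9 and then 43, 32 and 0 in males. Without these barcodes, an alternative chosen after seeing the data, 35 features passed in females, 29 in males and 1, asRNA:CR44429, for the interaction.

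The X chromosome took a smaller share of nuclear UMIs in male than in female sums of every library, roX genes left out. Males had 17.1%, 17.1% and 16.5% in controls and 16.8%, 16.8% and 17.7% in knock-in libraries, and females had 19.2%, 18.3% and 18.6% and then 17.6%, 17.4% and 19.0%. The male minus female gap was -1.79 points ± 0.50 in controls and -0.94 points ± 0.36 in knock-in libraries (SD, n = 3 each; two-sided exact permutation p = 0.2). With Yp1 to Yp3, which are X-linked, also left out, the gaps were -1.17 ± 0.76 and -0.93 ± 0.37 points (SD, n = 3 each; two-sided exact permutation p = 0.7). Of X-linked features 1622 were tested in males, with a median log2 difference of 0.01 and 2 called, both insertions described above, and 1522 in females, with a median of 0.02 and 0 called in edgeR (154 had an unadjusted p under 0.05, 10.1% against 12.1% of all features). The median interaction over 1606 X-linked features was -0.01, and edgeR called 0, with 6.35% at an unadjusted p under 0.05 (102 features) against 5.43% of all features.

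The share of nuclear UMIs from chromosome 4 was set side by side in the sexes. Males had 2.63%, 2.54% and 2.56% in controls and 2.53%, 2.58% and 2.70% in knock-in libraries, which overlap. Females had 2.28%, 2.44% and 2.45% in controls and 2.48%, 2.52% and 2.72% in knock-in libraries, which do not (two-sided exact permutation p = 0.1, the smallest possible, n = 3 each). The male minus female gap was 0.19 points ± 0.14 in controls and 0.03 points ± 0.05 in knock-in libraries, also without overlap (SD, n = 3 each; two-sided exact permutation p = 0.1). The median log2 difference of chromosome 4 features was 0.09 over 242 features in males and 0.13 over 211 in females, and that of the interaction was -0.03 over 227.

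Mitochondrially encoded transcripts took a larger share of UMIs in knock-in cells of both sexes. The rule itself used this share, so the values and tests below hold only for barcodes under its cap of 20%. Of barcodes with at least 2000 UMIs, the cap removed 1.06%, 0.540% and 1.27% in controls. In knock-in libraries it removed 0.529%, 0.181% and 3.57%. Male sums held 3.02%, 3.36% and 3.39% in controls and 4.29%, 4.50% and 5.14% in knock-in libraries. Female sums held 2.74%, 3.41% and 3.44% in controls and 4.51%, 4.58% and 5.37% in knock-in libraries. The genotypes did not overlap in either sex, with means of 3.26% ± 0.20 and 4.64% ± 0.44 in males and 3.20% ± 0.40 and 4.82% ± 0.48 in females (SD, n = 3 each; two-sided exact permutation p = 0.1 in each sex, the smallest possible). The male minus female difference was 0.06 points ± 0.20 in controls and -0.18 points ± 0.08 in knock-in libraries (SD, n = 3 each; two-sided exact permutation p = 0.1).

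Gene by gene, 13 of the 15 listed mitochondrial transcripts were tested. All 13 had positive log2 differences in both sexes, with medians of 0.56 in males and 0.67 in females and 0 called in edgeR. An unadjusted edgeR p under 0.05 was reached by 7 in males and 6 in females (53.8% and 46.2%, against 8.39% and 12.1% of all features). mt:Cyt-b, the cytochrome b of complex III, had 0.64 in males and 0.68 in females (SE 0.15 and 0.17, edgeR adjusted p = 0.234 and 0.259). mt:CoI, the catalytic subunit of cytochrome oxidase, had 0.72 and 0.77 (edgeR adjusted p = 0.253 and 0.250). The median interaction was -0.03, from -0.22 to 0.01 over the 13.

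The nuclear-encoded lists for complex I, cytosolic ribosomal proteins and the proteasome had medians below 0 in both sexes. Of 35 complex I genes tested in males and 34 in females, 31 and 29 were negative, with medians of -0.19 and -0.18. Of 83 ribosomal protein genes, 69 and 70 were negative, with medians of -0.22 and -0.26. An unadjusted edgeR p under 0.05 was reached by 14 and 20 of them (16.9% and 24.1%, against 8.39% and 12.1% of all features). RpLP2, a stalk protein of the large ribosomal subunit, had -0.54 in males and -0.69 in females (edgeR adjusted p = 0.262 and 0.229). Of proteasome genes 31 of 34 and 29 of 33 were negative, with medians of -0.23 and -0.28. In males and females 5.88% and 9.09% of them reached an unadjusted edgeR p under 0.05, as did 5.71% and 5.88% of complex I genes. These shares were below those of all features. None of the 3 lists had a member past the threshold in edgeR in either sex or for the interaction, whose medians were -0.01, 0.05 and 0.05. The interaction was positive for 14 of 34 complex I, 70 of 83 ribosomal protein and 26 of 33 proteasome genes. An unadjusted edgeR p under 0.05 was reached by 0%, 7.23% and 15.2% of them, against 5.43% of all features. The lists as wholes were not tested.

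Synaptic and tau-related lists had medians from 0.06 to 0.16 and held no called gene. Of all features 8.39% in males and 12.1% in females reached an unadjusted edgeR p under 0.05. For synaptic vesicle release genes the share was 7.14% in each sex, and for tau kinases and phosphatases 5.88% in each sex. For tau and microtubule genes it was 9.09% in males and 27.3% in females. Of the 14 synaptic vesicle release genes, 11 were positive in males and 12 in females, with medians of 0.11 and 0.15 and an interaction median of -0.05. unc-13, a vesicle priming factor, had 0.34 in males and 0.44 in females (edgeR adjusted p = 0.565 and 0.336). The 11 tau and microtubule genes tested had medians of 0.06 and 0.11, with 7 positive in each sex. Of the 17 tau kinases and phosphatases 14 were positive in males and 16 in females, with medians of 0.09 and 0.16. The interaction medians of these lists were -0.01 and -0.05, with 6 of 11 and 16 of 17 negative. tws, a regulatory subunit of the phosphatase PP2A that acts on Tau, had 0.36 in males and 0.47 in females (edgeR adjusted p = 0.490 and 0.291). betaTub60D, a beta-tubulin, had the largest interaction of these, 2.40 (SE 0.84, edgeR adjusted p = 0.873), with -2.26 in females (edgeR adjusted p = 0.336). Its highest level was 8.01 CPM in female control replicate 3, without which these values were 1.68 and -1.27. Without control replicate 2 the interaction was 5.17, and betaTub60D was not tested in females.

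Immune, stress and peptide lists held large single values with wide errors. Of 14 antimicrobial peptide genes, 4 passed the low-count filter in males and 6 in females, with medians of -2.29 and -3.43. When a library was left out, the median ran from -2.69 to -1.92 in males and from -5.48 to -2.52 in females. The low-count filter was then applied anew and left 3 to 11 genes, so these medians cover changing sets of genes. Female control replicate 1 held 389.9 CPM of AttA and 3371 CPM of AttC, antibacterial attacins that reached at most 10.8 and 94.9 CPM in any other sum. Metchnikowin (Mtk), an antifungal peptide, had -2.22 in males (SE 0.53) and -4.15 in females (SE 1.16; edgeR adjusted p = 0.252 and 0.273). Without control replicate 3, at 66.0 CPM in females, the female value was -1.94, and without control replicate 2, at 7.60 CPM in males, the male value was -1.45.

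Thor, the 4E-BP inhibitor of translation, had -3.96 in males (SE 1.46) and -3.63 in females (SE 1.15; edgeR adjusted p = 0.529 and 0.307). Control replicate 3 held 85.6 CPM in males and 66.2 CPM in females, where no other sum passed 4.98 CPM, and without it the male value turned to 0.64 and the female value was -1.05. Thor stands in a list of 8 activity and early stress genes with medians of 0.23 and 0.16. Of 28 neuropeptide genes tested in males and 27 in females the medians were 0.09 and 0.03. Capa, the precursor of CAPA peptides, had 4.47 and 4.58 (SE 1.15 and 1.49, edgeR adjusted p = 0.277 and 0.315). Without knock-in replicate 3, at 95.5 CPM in males, these values were 3.07 and 1.82. No member of the antimicrobial peptide, activity or neuropeptide lists was called in edgeR, and their interaction medians were 1.34, 0.18 and 0.14. The first ran from 0.43 to 3.38 when a library was left out, over a changing set of genes.

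Marker genes gave the makeup of the male and female barcodes of a library. At least 2 UMIs of 4 neuron markers were present in 97.7 to 99.7% of barcodes and of 6 glial markers in 4.96 to 15.7%. Neuron markers were in 99.4%, 99.7% and 98.8% of male and 97.9%, 98.9% and 97.7% of female control barcodes, and in 99.5%, 99.7% and 99.6% of male and 99.1%, 99.5% and 99.2% of female knock-in barcodes. The male minus female gap was 1.13 points ± 0.35 in controls and 0.34 points ± 0.10 in knock-in libraries, without overlap (SD, n = 3 each; two-sided exact permutation p = 0.1, the smallest possible). The glutamatergic marker VGlut was found in 14.9%, 17.6% and 17.2% of male control barcodes and in 19.3%, 25.6% and 21.5% of male knock-in barcodes, and in 15.9%, 16.1% and 16.3% of female control against 17.1%, 23.6% and 20.5% of female knock-in barcodes. The genotypes did not overlap in either sex (two-sided exact permutation p = 0.1 each, the smallest possible, n = 3 each). The gap between the sexes was 0.45 points ± 1.37 in controls and 1.72 points ± 0.65 in knock-in libraries (SD, n = 3 each; two-sided exact permutation p = 0.2).

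Other marker lists spanned 43.9 to 52.2% of barcodes for cholinergic, 14.4 to 22.8% for GABAergic, 2.16 to 4.62% for monoaminergic, 72.2 to 86.5% for Kenyon cell, 1.46 to 3.43% for hemocyte, at most 0.837% for photoreceptor and at most 0.0968% for muscle markers. Kenyon cell markers were in 72.2%, 76.4% and 77.8% of female control and 78.9%, 82.4% and 78.4% of female knock-in barcodes, without overlap (two-sided exact permutation p = 0.1, n = 3 each), while males overlapped (p = 0.3, exact). Several Kenyon cell markers are expressed widely, so their share does not count Kenyon cells. Muscle markers also did not overlap between genotypes in males, at no more than 0.0496% of barcodes. Hemocyte markers were in fewer knock-in than control barcodes, with no overlap in either sex (two-sided exact permutation p = 0.1 each, n = 3 each), at 3.43%, 2.33% and 2.45% against 1.92%, 1.46% and 2.28% in males and at 3.21%, 2.61% and 1.84% against 1.80%, 1.69% and 1.58% in females. Free RNA adds to all such shares. Of the hemocyte markers, Pxn held at least 213 UMIs in every sum. The lowest sum held 1 UMI for each of Hml, srp and NimC1, and He was at 0 in 9 of the 12 sums. In the sparsest sums the hemocyte list therefore rests mainly on Pxn, and whether its other markers changed was not tested. Fewer cells of a type and less RNA per cell cannot be told apart in sums. The part of cell makeup in the gene results was not tested.

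At a fixed 2000 UMIs, male barcodes showed 1012, 986 and 958 genes on average in controls and 963, 946 and 953 in knock-in libraries. Female barcodes showed 1003, 985 and 956 genes in controls and 956, 938 and 952 in knock-in libraries. Control replicate 3 lay within the knock-in range in males and level with knock-in replicate 1 in females. Means were 985 ± 27.0 and 954 ± 8.65 genes in males (two-sided exact permutation p = 0.2) and 981 ± 23.4 and 949 ± 9.62 in females (p = 0.1, exact; SD, n = 3 each).

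**Figure D5:**
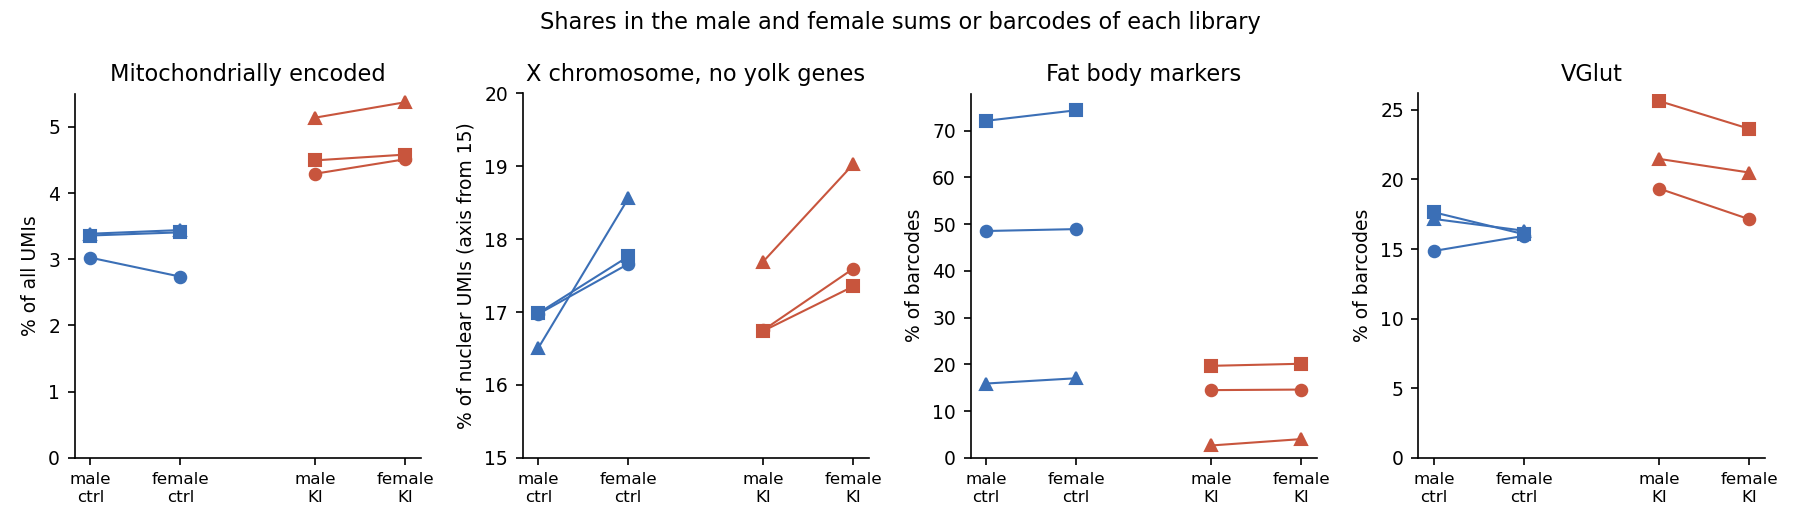
Share of UMIs from mitochondrially encoded genes, X chromosome share of nuclear UMIs without roX and yolk protein genes (axis from 15), and share of barcodes with at least 2 UMIs of fat body markers or of VGlut, in the male and female sums or barcodes of each library (% on each vertical axis), joined by a line, with controls blue, knock-in libraries red, and circles, squares and triangles for replicates 1, 2 and 3. The mitochondrial share is higher in all knock-in sums, and the X share is lower in the male sum of each library.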

How the data were processed

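The deposited matrices hold raw counts of UMIs per feature and barcode for 22064 features, with barcodes not filtered to cells. They were written by Cell Ranger, version 4 per the file headers and 6.0 per the submitters' processing notes. Genome build, annotation and counting by strand are not given in the sources used here. Total counts per deposited library were 22026339 to 114599045 UMIs. Coordinates came from Ensembl BDGP6 by identifier (22016 features matched).

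Barcodes were sexed as described and summed per library and sex, with the library as replicate and no doublet removal. edgeR 4.0.16 in R 4.3.3 (quasi-likelihood, TMM, filterByExpr, two-sided, Benjamini-Hochberg adjusted p under 0.05 over all features tested) compared genotypes within each sex. The interaction was fitted on all 12 sums with library and sex as terms. DESeq2 1.42.0 and limma 3.58.1 (voom) were alternatives. CPM use TMM factors: of all 12 sums for tau, sex genes and interaction features, otherwise of 1 sex's 6 sums. Single values were compared with exact permutation tests (scipy 1.17.1). The scripts were tested on simulated data.

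Named genes were, per sex, up to 10 increases and 10 decreases among called features without overlap between genotypes, the 10 smallest interaction p, fixed sex and knock-in genes, and per list the called or 2 smallest-p members. The members, thresholds, lists and named genes were chosen with earlier results of these data known. Floors (3 counts) and intervals (95%) on counts cover counting error only. Same-numbered libraries had deviations correlated at 0.0697, 0.0825 and 0.0305 in males and 0.130, 0.0425 and 0.267 in females over features, so the numbers were not taken as pairs. A called feature is not reported here by name, though it is counted.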

Additional observations from a re-analysis of the deposited data

How the results depend on the processing

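Counts of features past the threshold (21 in males, 8 in females, 0 for the interaction) moved with the settings. In the order males, females, interaction they were 131, 351 and 9 with DESeq2, 21, 8 and 1 with DESeq2's size factors in edgeR, 65, 66 and 36 with only all-zero features left out, 58, 32 and 2 with limma voom, 16, 4 and 0 at 4000 UMIs or more, 20, 14 and 0 at 10% mitochondrial or less, 27, 31 and 6 without the deepest 10% of barcodes, 24, 19 and 1 with elav or nSyb and no repo, 23, 17 and 0 with sums thinned to the smallest, 28, 5 and 0 with a depth term, and 29, 35 and 1 without barcodes rich in yolk protein UMIs (chosen after seeing the data). Of DESeq2's calls 36.6% were higher in knock-in males and 21.1% in females, against 42.9% and 4 of 8 in edgeR. With the replicate number as a block the counts were 36, 18 and 2. Same-numbered libraries did not pair by their correlations, so this says nothing of weaker or stronger effects. Stricter sex thresholds gave 25, 8 and 0. Leaving out a library gave 1 to 88, 3 to 18 and 0 to 7. The cause of these changes was not tested, but leaving out a library also leaves fewer samples.

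Among uncalled values, the sign turned for dsx in males at 4000 UMIs (0.090), for w in males (-0.54 to 0.24 without a library, 0.12 with a depth term) and females (-0.47 to 0.34, 0.026 without the deepest barcodes, 0.13 with a depth term), and for tra in females (-0.024 to 0.17 without a library, -0.058 at 4000 UMIs, -0.036 with thinned sums). Without a library roX1 in males ran from -0.22 to 0.10, roX2 from -0.20 to 0.13, and tau from -0.50 to 0.27 in males and -0.52 to 0.27 in females. The male share difference ran from -2.77 to 12.8 points and that of the X share in males from -0.131 to 0.329. At 4000 UMIs the X share difference was -1.84 in females and 1.99 for males minus females, the mitochondrial one 0.960 in males and 1.18 in females, and the male minus female genes -2.96 (-0.171 with stricter thresholds). With all eligible barcodes, the male minus female X share difference without Yp1 to Yp3 was 0.243.

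The shallowest sums, 2461110 UMIs in control replicate 1 males, limit what can be seen in rare transcripts, and 4 residual degrees of freedom limit each fit.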
